A study of Xenopus laevis with 5 samples.

Results

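Tp63.L, the L homeolog of the gene for the transcription factor p63 (gene ID 373640), was followed in ectodermal explants of Xenopus laevis. Its members are all probe sets that the platform annotation names tp63, from either homeolog. There was 1 such probe set among 15611 on the array, and 7531 genes had a probe set of their own name. It passed the filter on dim probe sets. The gene table also lists tp63.S, which was not analysed here. A probe set for 1 homeolog can also bind RNA of the other, and 1 value does not separate the isoforms of p63. The keratin gene krt19.L and the goblet cell gene itln1.L were read beside it.

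The groups were 2 samples of explants injected with RNA for ICD and FoxJ1 and 3 samples of explants injected with RNA for ICD alone, 1 Affymetrix array each. ICD is the usual name for the intracellular domain of Notch, a reading the labels themselves do not give, and FoxJ1 is a forkhead factor known to regulate motile cilia. All 5 samples therefore carried ICD, and no uninjected explants were analysed here. RNA was injected at the 2-cell stage. The presumptive ectoderm was removed at stage 9 to 10 and cultured on fibronectin until stage 22, when RNA was taken from the whole explant.

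p63 is required for stratified epithelia in mammals, where it maintains basal progenitor cells and their attachment to the basement membrane. In the frog's embryonic skin it marks the cells of the inner layer, from which multiciliated cells and ionocytes arise and move into an outer layer of mucus-secreting goblet cells. Notch signalling in that inner layer limits how many cells become multiciliated.

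Signals were on the authors' linear scale. The brightest of 20 control probe sets that match no frog RNA set the background level of each array, between 16.9 and 28.4, and between 65.3% and 77.3% of probe sets exceeded it. The arrays split in their control probe sets. ICD+FoxJ1 replicate 1 and ICD replicates 1 and 2 had poly-A control signal, while ICD+FoxJ1 replicate 2 and ICD replicate 3 had almost none. Median signals of the bioB controls split the same way, at 99.8, 86.4 and 104.25 against 250.5 and 227.85. The labels do not say what this reflects, and labelling split is only its name below. ICD replicate 1 stood apart in cilium genes: the signals of 19 genes listed as multiciliated cell markers summed to 663.3 there, against 1942.4 and 2661.8 on ICD replicates 2 and 3. It also stood apart in Notch target genes, whose values are given with the Notch list. The goblet cell gene itln1.L was at 5924.8 or more on every array. Of 25 listed mesoderm and endoderm genes, 11 were at background on all 5 arrays. So were 9 of 23 keratin genes, so this count alone does not identify the tissue. Nothing in the labels states that replicates are separate clutches or cultures, so a p-value here covers the spread among 5 samples that may differ only technically.

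Tp63.L was much lower with FoxJ1. Its signal was 26.3 and 36.2 in the ICD+FoxJ1 explants, against 145.5, 150.6 and 151.3 in the ICD explants. The groups did not overlap, and the lowest ICD array was 4.02 times the highest ICD+FoxJ1 array. Mean signals were 31.3 ± 7.00 (SD, n = 2) with ICD and FoxJ1 and 149 ± 3.17 (SD, n = 3) with ICD alone, a ratio of ICD to ICD+FoxJ1 of 4.77. On the scale of log2(signal + 16) the difference, ICD+FoxJ1 minus ICD, was -1.81 (SE 0.23, 95% confidence interval -2.34 to -1.28, limma adjusted p = 0.00412). The exact permutation test over 10 splits of the arrays gave a two-sided p of 0.1, the smallest that 3 arrays against 2 can give. Tp63.L was 1 of 347 probe sets that fell, 2.99% of the 11618 tested, and its fall ranked 80 in size among them. Another 521 probe sets, 4.48%, rose. Among all tested probe sets the median difference was -0.03, and in 23.0% both ICD+FoxJ1 arrays lay below all ICD arrays. In whole explants, fewer cells that express tp63.L and less of its RNA per cell cannot be told apart.

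**Figure D1:**
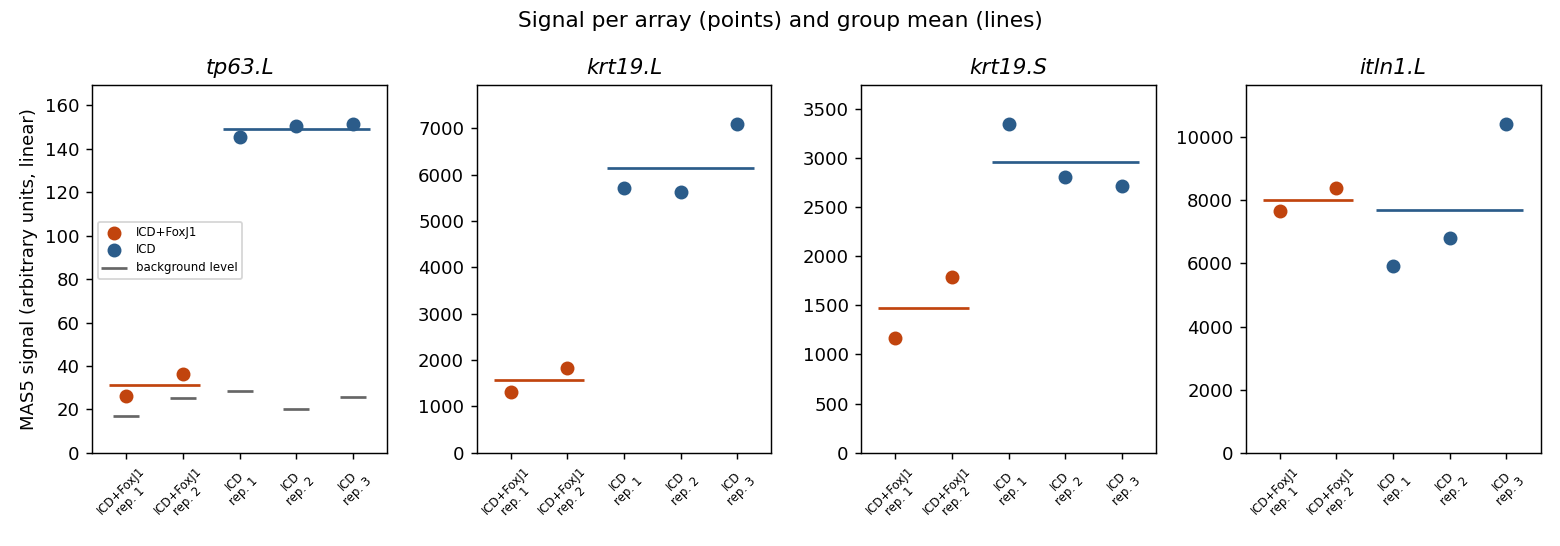
MAS5 signal (linear, arbitrary units) of tp63.L, krt19.L, krt19.S and itln1.L on each of the 5 arrays, with points for arrays, coloured lines for group means and, for tp63.L, grey bars for the background level of each array. Both ICD+FoxJ1 arrays lie below the ICD arrays for tp63.L and for both krt19 homeologs, and the groups overlap for itln1.L.

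The remaining tp63.L signal was dim. It was 1.56 and 1.43 times the background level on ICD+FoxJ1 replicates 1 and 2, against 5.12, 7.53 and 5.84 times on ICD replicates 1 to 3. The added 16 therefore weighs on the size of the fall: the log2 difference was -2.24 with 1 added and -1.16 with 64 added, and the probe set passed the threshold in both. Without ICD+FoxJ1 replicate 1 the difference was -1.66 and no longer passed (limma adjusted p = 0.0746), with the lone remaining array assumed to vary like the ICD arrays. Over all 15 alternatives the adjusted p ran from 0.00241 to 0.111.

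The ICD arrays agreed closely in tp63.L. Their highest signal was 1.04 times the lowest, and the SD of log2(signal + 16) over the 3 arrays was 0.03, against a median of 0.27 over all tested probe sets. Only 0.800% of the tested probe sets had a smaller SD. The 2 ICD+FoxJ1 arrays differed more, by 1.38 times. ICD replicate 1, which stood apart in cilium and Notch target genes, had 145.5 for tp63.L, within 6 signal units of the other ICD arrays.

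Within the labelling split the fall was seen on both sides, with no replicates on the ICD+FoxJ1 side. Among the arrays with poly-A control signal, ICD+FoxJ1 replicate 1 lay 1.96 below the mean of ICD replicates 1 and 2 on the log2 scale. Among the arrays without it, ICD+FoxJ1 replicate 2 lay 1.68 below ICD replicate 3. With the split as a block the difference was -1.84 (SE 0.22, limma adjusted p = 0.0184).

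Krt19.L, a keratin gene of embryonic skin, also fell. Its signal was 1321.4 and 1833.2 with ICD and FoxJ1, against 5704.2, 5628 and 7081.4 with ICD alone, and its log2 difference was -1.96 (SE 0.21, limma adjusted p = 0.00216). The difference of tp63.L exceeded that of krt19.L by 0.15 (95% confidence interval -0.36 to 0.66, limma without a variance trend; exact permutation test over 10 splits of the arrays, two-sided p = 0.6). The sign of this gap turned with the added constant. It was -0.27 with 1 added (95% confidence interval -0.84 to 0.31) and 0.76 with 64 added (95% confidence interval 0.35 to 1.18), so which of the genes fell more was not settled.

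Itln1.L, which encodes the intelectin secreted by goblet cells of the outer layer, did not separate the groups. Its signal was 7647.5 and 8390.9 with ICD and FoxJ1, against 5924.8, 6788.9 and 10404.4 with ICD alone. The log2 difference was 0.10 (95% confidence interval -0.47 to 0.67, limma adjusted p = 0.842). The difference of tp63.L lay 1.91 below that of itln1.L (95% confidence interval -2.56 to -1.26), and the same contrast was negative with 1 or 64 added. The exact two-sided permutation p was 0.1, the smallest that 3 arrays against 2 can give.

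Most keratin genes did not pass the test, as most named genes did not. Of 14 tested, 2 fell, 0 rose and 12 did not pass, a count that includes krt19.L from above. Of 6092 named genes, counted with 1 probe set each, 3.12% fell and 4.43% rose. The 2 keratin genes that fell were the krt19 homeologs, and krt19.S fell by 1.02 on the log2 scale (limma adjusted p = 0.0400). The fall of tp63.L was larger than that of krt19.S by 0.79 (95% confidence interval of the difference -1.33 to -0.26, exact permutation p = 0.1, the smallest possible). That gap also changed with the added constant. The difference between the 2 genes was -1.21 with 1 added and -0.17 with 64 added, where it had a 95% confidence interval of -0.63 to 0.29. Krt18.1.L, of simple epithelium, had a difference of -0.99 that did not pass. The bright keratin genes krt12.4.L, krt70.S and krt7.L had differences of 0.17, 0.03 and 0.06, and the keratin median was 0.20. The other 9 keratin genes with a probe set were too dim to be tested. With ICD replicate 1 left out, 647 of all tested probe sets fell, against 347 with all arrays. The call of krt19.S was lost when either ICD+FoxJ1 array, ICD replicate 2 or ICD replicate 3 was left out, which left krt19.L as the 1 keratin past the threshold, and without ICD replicate 1, 3 keratin genes fell.

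The genes whose signals ran most like tp63.L over the 5 arrays were found by the root mean square distance between log2(signal + 16) profiles, each centred on its own mean. The nearest of 6091 named genes was itgb1.L, at a distance of 0.076, and the median distance was 0.91. It encodes integrin beta 1, the common subunit of receptors for basement membrane and fibronectin. Its signal was 357.7 and 418.3 with ICD and FoxJ1, against 1385.8, 1258.3 and 1323.2 with ICD alone. The S homeolog of the same gene, itgb1.S, was the last of the 10 nearest, at a distance of 0.20. It had 368.3 and 319.1 with ICD and FoxJ1, against 1257.3, 1425.6 and 1596.3 with ICD alone. The groups overlapped for neither homeolog, as the choice by likeness to tp63.L fixes. In 23.0% of all tested probe sets both ICD+FoxJ1 arrays lay below all ICD arrays. A second, dimmer probe set for itgb1.L had a difference of -0.91 and did not pass (limma adjusted p = 0.105).

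Krt19.L was second in likeness, at 0.14. Next came pimreg.L, whose human counterpart is a mitotic regulator, and jag1.L, a Notch ligand gene, at distances of 0.14 and 0.16. Crabp2.L, which encodes a retinoic acid binding protein, was at 0.18. Smtn.L and cnn2.L, for the actin-associated proteins smoothelin and calponin, were at 0.19 and 0.20. Pisd-like.2.L was at 0.19 and the semaphorin gene sema6d.L at 0.20. Sema6d.L was at background on both ICD+FoxJ1 arrays and at least 3.73-fold lower there. All 10 genes were chosen for their likeness to tp63.L, so that they fell is a description. Those that also belong to a gene list are counted there.

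**Figure D2:**
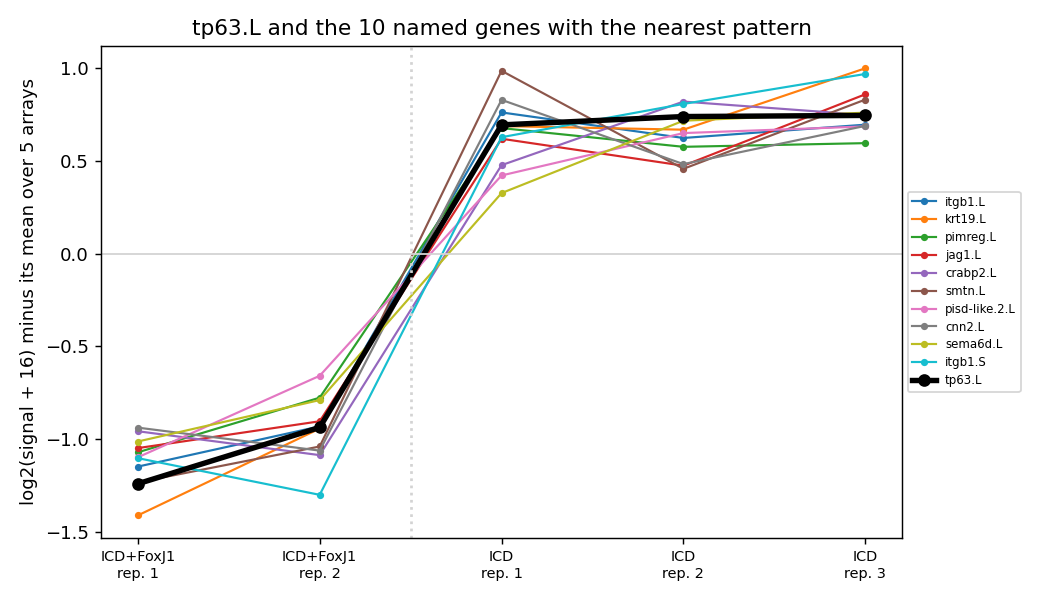
Log2(signal + 16) minus its mean over the 5 arrays (y axis) for tp63.L (thick black line) and the 10 named genes with the nearest pattern (thin coloured lines), by array, with the 2 ICD+FoxJ1 arrays left of the dotted line and the 3 ICD arrays right of it. All 11 genes lie below 0 on both ICD+FoxJ1 arrays and above 0 on the ICD arrays, as their choice by likeness fixes.

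Several genes of attachment to the matrix and to neighbouring cells fell with FoxJ1. Of 22 genes tested, 7 fell, 0 rose and 15 did not pass, with a median of -0.36. Of all named genes, 3.12% fell and 4.43% rose. Like the others, this list was chosen with earlier results of these data known. Itgb1.L and itgb1.S were also among the genes nearest to tp63.L, so the count is a description. Many genes of this kind depend on p63 in mammalian skin, and whether they did so here was not tested. Col18a1.L, for a basement membrane collagen, fell by 2.82 on the log2 scale and its homeolog col18a1.S fell by 2.83. Itgb1.S fell by 2.00 and itgb1.L fell by 1.73. Fermt1.S, the gene of the integrin activator kindlin 1, fell by 1.78, the integrin alpha 3 gene itga3.L by 1.48 and the desmosomal plakophilin gene pkp2.L by 1.10.

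Other genes of this group did not pass. Among desmosome and cornified envelope genes, pkp3.S, evpl.L, dsp.L, jup.L, perp.S and jup.S had differences of 0.55, 0.48, 0.42, 0.27, 0.25 and -0.14. That of dsp.L was -0.03 without ICD replicate 1. Ppl.L, for periplakin, had a difference of 0.38. Dimmer probe sets for ppl.L had 1.435 (limma adjusted p = 0.0515) and 0.427, and neither passed. Perp is a direct p63 target in mouse skin, and its signal was 2097.9 and 1698.7 with ICD and FoxJ1, against 1581.9, 1643.9 and 1534.5 with ICD alone. Itga6.L, the alpha subunit of hemidesmosomal integrin, had a difference of -0.36, and the adhesion gene cdh3.S one of -1.11, neither of which passed. Without ICD+FoxJ1 replicate 1, 3 of the 22 genes fell, without ICD+FoxJ1 replicate 2 or ICD replicate 3, 4 fell, and with only the 3 arrays that had poly-A control signal, 2 fell.

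Of 28 other genes listed as p63 targets in mammalian keratinocytes, 2 fell, 0 rose and 26 did not pass, with a median of -0.06. Of all named genes, 3.12% fell and 4.43% rose. The claudin gene cldn1.S had 247.3 and 203.9 with ICD and FoxJ1, against 2155.1, 1745.3 and 1418.2 with ICD alone, and fell by 2.87 (SE 0.24, limma adjusted p = 0.00131). Its second probe set fell by 2.59. Jag1.L, also among the genes nearest to tp63.L, fell by 1.63, so the count is a description. Some genes of this list, dlx3.L among them, are also counted with the epidermal regulators below. Fgfr2.L, a growth factor receptor gene, and trim29.L, of the tripartite motif family, had differences of -0.62 and 0.36 and did not pass. Without either ICD+FoxJ1 array, or with only the arrays that had poly-A control signal, 1 of these genes passed, and without ICD replicate 1, 3 did.

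**Figure D3:**
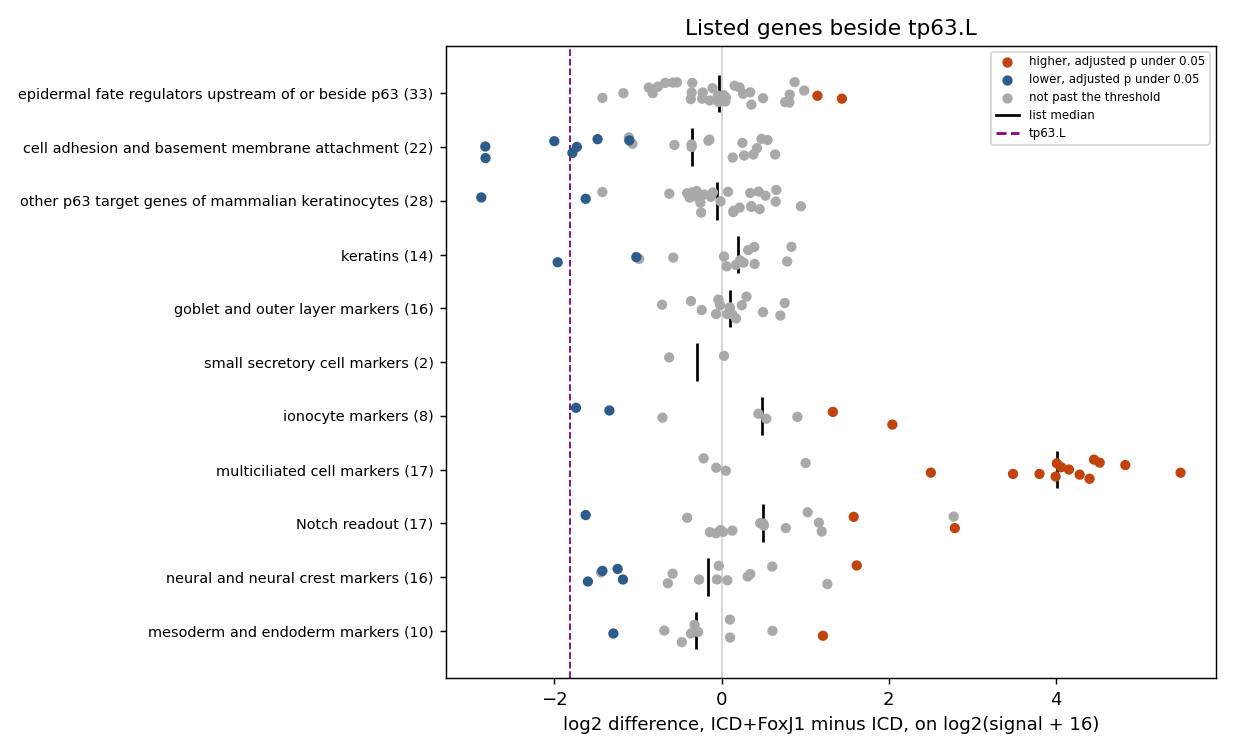
Log2 difference, ICD+FoxJ1 minus ICD, on log2(signal + 16) (x axis), of each tested gene (points) in 11 lists (rows, with the number tested), coloured by whether it rose, fell or did not pass an adjusted p of 0.05, with black bars for list medians and a dashed line at tp63.L (-1.81). The attachment list holds 7 genes that fell, the goblet list 0, and the multiciliated list 13 that rose. Of all named genes, 3.12% fell and 4.43% rose, so a list as short as the goblet list would hold few such genes.

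Regulators that act upstream of p63 or beside it in surface ectoderm mostly did not pass the test, as most named genes did not. Of 33 genes of BMP signalling and epidermal fate, 2 rose, 0 fell and 31 did not pass, with a median of -0.03. Of all named genes, 4.43% rose and 3.12% fell. In the list 10 genes had an unadjusted p under 0.05 in limma, but such p-values were common. Grhl1.L, with an unadjusted limma p of 0.045, ranked 2718 by p among the 11618 probe sets tested. Klf5.S, a Krüppel-like factor gene of epithelia, rose by 1.44 (SE 0.23, limma adjusted p = 0.0106), with 96.6 and 97.3 in ICD+FoxJ1 explants against 22.1, 21.8 and 34.1 in ICD explants. Its second, dimmer probe set differed by 0.30 and did not pass. Id2.S, a BMP-induced inhibitor of helix-loop-helix factors, rose by 1.15. The epidermal regulators tfap2a.L, gata3.S, dlx3.L and grhl3.L had differences of -0.53, -0.76, 0.34 and 0.82, and none passed. Bmp2.L, for a BMP ligand, had a difference of -1.17 and did not pass (limma adjusted p = 0.106). Without ICD replicate 1, 740 of all tested probe sets rose and 647 fell. In that fit 4 genes of this list rose and 3 fell, gata3.S among them with -0.90 (limma adjusted p = 0.0285). Without ICD replicate 3, 1 rose and 1 fell, and without either ICD+FoxJ1 array 0 passed.

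Lists of markers of other cell types in the explant differed in how many members passed, where 4.43% of all named genes rose and 3.12% fell. Of 17 multiciliated cell markers tested, 13 rose and 0 fell, with a median of 4.01. Without ICD replicate 1, 13 rose and 1 fell. The signals of all 19 with a probe set summed to between 22295.4 and 25152.9 with ICD and FoxJ1, against 663.3 to 2661.8 with ICD alone. Leaving out ICD+FoxJ1 replicate 1 or 2 gave 7 or 8 that rose. Dnah9.S and myb.S were at background on every array, and 0 of the 19 were listed at 0. Ccno.L was 1 of the 4 tested markers that did not pass. It had 176.7 and 193.4 with ICD and FoxJ1, against 31.7, 319.5 and 439 with ICD alone. FoxJ1 is itself known to regulate motile cilia, and whether the number of multiciliated cells changed was not tested. Of 16 goblet and outer layer genes tested, 0 passed in limma, 1, again grhl1.L, had an unadjusted p under 0.05, and their median was 0.10. Without ICD replicate 1, 1 rose and 1 fell. Signals of the 17 goblet genes with a probe set summed to 38083.1 and 42800.9 with ICD and FoxJ1, against 33599.7 to 42087.9 with ICD alone, overlapping ranges. The part of these cell types in the tp63.L result was not tested.

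Among 8 ionocyte genes tested, 2 rose and 2 fell, where 4.43% of all named genes rose and 3.12% fell. The 2 that fell were the homeologs of foxi4.2, a forkhead factor of the ionocyte family, of which foxi4.2.L fell by 1.74 and foxi4.2.S fell by 1.34, and the proton pump subunit gene atp6v0d2.L rose by 2.04. A second, dimmer probe set for foxi4.2.L ran the other way, with 53.5 and 32.2 in ICD+FoxJ1 explants against 30.6, 28.4 and 25.4 in ICD explants, a difference of 0.39 that did not pass (limma adjusted p = 0.340). The 12 ionocyte genes with a probe set summed to 1083.3 and 1281.7 with ICD and FoxJ1, against 1068.6 to 1190.6 with ICD alone. Genes that fell and genes that rose both enter this sum, so its overlap does not mean that the genes were unchanged. Of 2 small secretory cell genes tested, 0 passed in limma, 1 had an unadjusted p under 0.05, and the 4 with a probe set summed to 198.3 and 227.8 with ICD and FoxJ1, against 188.2 to 384.2 with ICD alone. Of 17 genes of the Notch list, 2 rose and 1, jag1.L, fell, with a median of 0.50. Jag1.L was also counted among the p63 targets. Those that rose were hes5.10.L and hes5.2.L, of a family of Notch target genes, by 2.79 and 1.58. The 18 Notch genes with a probe set summed to 6281.9 and 7977.7 with ICD and FoxJ1. On ICD replicates 1 to 3 they summed to 6121.4, 4037.9 and 4214.7, so ICD replicate 1 lay only just below the lower ICD+FoxJ1 sum. The part of this difference in the tp63.L result was not tested. The target gene hes5.1.L had 707.4 and 872.9 with ICD and FoxJ1, against 660.7, 44.7 and 23 with ICD alone, and hey1.S had 445.2 and 954.7 with ICD and FoxJ1, against 1154.7, 222.7 and 200.9 with ICD alone. ICD replicate 1 was thus the highest ICD array for both, and neither gene passed with all arrays. With that array left out, 740 of all tested probe sets rose, against 521 with all arrays. Leaving out ICD+FoxJ1 replicate 1 left 0 ionocyte, 0 Notch and 0 neural genes past the threshold, and leaving out ICD+FoxJ1 replicate 2 left 1, 1 and 0, while 7 Notch genes rose without ICD replicate 1.

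Neural and mesodermal genes were read as markers of other tissues, again beside the 4.43% of all named genes that rose and the 3.12% that fell. Of 16 neural and neural crest genes tested, 1 rose and 4 fell, and the differences ran from -1.60 to 1.62. Tubb2b.S and msi1.L were among those that fell, by 1.43 and 1.18. Of the 29 with a probe set, 6 were at background on all arrays. On both ICD+FoxJ1 arrays 15 were at background, against 6 on all 3 ICD arrays, so the sum below leans on the brighter genes. Signals of all 29 summed to 3983.9 and 4720.9 with ICD and FoxJ1, against 2582.4 to 5846.4 with ICD alone. Of the neural genes, 6 fell without ICD replicate 1 and 2 without ICD replicate 2 or 3. In these fits 647, 214 and 169 of all tested probe sets fell. Of 10 mesoderm and endoderm genes tested, 1 rose and 1 fell, and between 0 and 2 passed with any 1 array left out. All 25 with a probe set summed to 1076.2 and 1601.7 with ICD and FoxJ1, against 1478.2 to 2435.9 with ICD alone. Their part in the tp63.L result was not tested either.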

How the data were processed

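For each array the authors deposited 1 intensity per probe set, a MAS5 signal per the submitters' processing notes, with version and settings not given in the sources used here. Each array had been scaled to the same mean with 2% trimmed. Names came from GEO's platform annotation, updated through RefSeq's gene table (Xenopus_laevis_v10.1). Signals were tested as log2(signal + 16) after the 120 controls and the dimmest 25% of probe sets by mean log2 signal had been left out. limma 3.58.1 in R 4.3.3 (lmFit, eBayes with trend) gave two-sided p-values, Benjamini-Hochberg adjusted over 11618 probe sets at a threshold of 0.05. The code was tested on simulated data. In 11 lists each gene had its brightest probe set, and another list is not reported here. The text names tp63, krt19.L, itln1.L, the 10 genes nearest in pattern, and up to 6 members of each list by p; other list members were named after their values were seen. Members and lists were chosen with earlier results of these data known. A bound sets dim arrays to their background level, on log2 signals. Figures used matplotlib 3.10.9. With 5 arrays, their number limits the precision.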

Additional observations from a re-analysis of the deposited data

How the results depend on the processing

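Tp63.L, krt19.L and krt19.S stayed lower with FoxJ1 under all 15 alternatives. Leaving out 1 array at a time gave log2 differences of -1.97 to -1.66 for tp63.L, -2.19 to -1.73 for krt19.L, -1.32 to -0.71 for krt19.S and -0.07 to 0.34 for itln1.L. It gave 32 to 647 probe sets lower (347 as reported) and 116 to 740 higher (521 as reported). List counts from these fits are to be read beside such totals, not beside the shares found with all arrays. Of 45 other tested genes that the report names, leaving aside ppl.L, ccno.L and grhl1.L, 24 passed as reported. Fits with a lone ICD+FoxJ1 array lost more of these calls than fits that left out 1 ICD array, which lost at most 6. Under the alternatives run, 0 of these calls turned direction. Sign changes in genes that passed in neither fit, such as that of dsp.L, were not counted. The list ranges that follow cover only the fits with 1 array left out, and other fits are given further below. By list, the members past the threshold numbered 0 to 7 for epidermal regulators, 3 to 7 for attachment, 1 to 3 for other p63 targets, 1 to 3 for keratins, 0 to 2 for goblet, 0 to 4 for ionocyte, 7 to 14 for multiciliated, 0 to 8 for Notch, 0 to 7 for neural and 0 to 2 for mesoderm and endoderm genes.

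The numbers shared by replicates 1 and 2 do not mark a shared batch in the labels. Deviations of same-numbered arrays from their group means correlated at -0.06 and -0.32. The deviations of the 2 ICD+FoxJ1 arrays mirror each other by construction, so these values cannot decide whether same-numbered arrays share a batch. With the replicate block on these 4 arrays, tp63.L had -1.80 (limma adjusted p = 0.0472), krt19.S had -1.08 and did not pass, 71 probe sets were lower and 247 higher, and members past the threshold were 4 attachment genes, 1 other p63 target, 1 keratin, 1 ionocyte and 1 Notch gene, and 0 epidermal regulators, 0 neural and 0 mesoderm or endoderm genes. With only the 3 arrays that had poly-A control signal, chosen after seeing the data, tp63.L had -1.96 (limma adjusted p = 0.111) and krt19.S had -1.38, neither past the threshold, and 23 probe sets were lower and 166 higher. The same lists then had 2, 1, 1, 1, 1, 0, 0 and 0 members. With the labelling split as a block, krt19.S had -1.05 and did not pass, 212 probe sets were lower, and 2 ionocyte, 3 neural and 1 mesoderm or endoderm genes passed. These fits use fewer arrays or spend a degree of freedom. Krt19.S also did not pass with no filter or without the variance trend (-1.02 in both), where 1 keratin passed. With no filter, 1 epidermal regulator and 1 mesoderm or endoderm gene passed. With the dimmest 50% left out these were 1 and 1, beside 1 neural gene, and with median centring 1 epidermal regulator passed. The causes of these last changes were not tested.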
